A study of Mus musculus with 20 samples.

Results

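The major urinary protein genes described here are Mup2, Mup3, Mup7, Mup9, Mup11, Mup12, Mup17, Mup19, Mup20 and Mup21, 10 of the 46603 gene identifiers in each count file. They were listed by symbol and matched to the Ensembl identifiers through GENCODE M21. Mup19 was chosen by its fold change between knockout and wild type in these libraries, so its values are a description with no test. The livers came from male mice aged 2 months. In 1 arm, 5 C57BL/6J mice bought from a vendor served as wild type (WT). In the other, 5 EedHepKO mice (KO) carried Alb:Cre, in which the promoter of albumin restricts Cre recombinase to the hepatocyte lineage, and Eed alleles floxed at exons 3 and 6. Lobes 1, 2 and 3, cut out during partial hepatectomy (PHx), were the baseline sample of a mouse, and lobes 4, 5 and 6 were collected later. In either genotype 1 mouse gave its later sample at 30 h, 2 at 40 h and 2 at 48 h, so that there were 4 groups of 5. Genotype cannot be told apart from colony of origin, and PHx cannot be told apart from lobe. Replicates were separate mice, called by the numbers in the labels: WT mice 1 to 5 and KO mice 7, 8, 10, 11 and 12. The label of 1 WT baseline sample has no mouse number, and that sample is called mouse 1 at baseline only as a name.

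EED is a core subunit of polycomb repressive complex 2, which methylates histone H3 and keeps silent genes silent. Major urinary proteins are small lipocalins, barrel-shaped carriers of hydrophobic ligands. Adult male mouse liver makes them in large amounts, secretes them into the blood and loses them into the urine, where they hold and release volatile pheromones. Their genes form an array of near-identical copies, and their transcription in male liver depends on pulsed growth hormone acting through its receptor and the factor STAT5B. Mup20 encodes darcin, a urinary protein of males that acts as a pheromone itself.

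All 10 genes lie on the minus strand of chromosome 4 (GENCODE M21, mm10 build), from Mup7 at chr4:60066469-60070475 to Mup21 at chr4:62147932-62150863. Their coding sequences, compared in GENCODE M21 transcripts, divide them into 3 kinds. Mup2, Mup7, Mup9, Mup11, Mup12, Mup17 and Mup19 were 98.4% to 99.8% identical to each other. Mup20 was 90.1% to 91.4% identical to those 7. Mup3 and Mup21, at the far end of the array, were 94.8% identical to each other and 83.8% to 84.9% identical to those 7. The last 60 coding bases, stop codon included, show the split, and the copy of Mup19 is also that of Mup2, Mup7, Mup9, Mup11, Mup12 and Mup17. Capitals mark bases that differ from Mup19.
Mup19: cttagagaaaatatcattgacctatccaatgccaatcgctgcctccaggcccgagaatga
Mup20: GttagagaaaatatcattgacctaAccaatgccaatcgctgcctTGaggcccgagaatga
Mup3: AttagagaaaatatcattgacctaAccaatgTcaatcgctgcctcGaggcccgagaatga
Mup21: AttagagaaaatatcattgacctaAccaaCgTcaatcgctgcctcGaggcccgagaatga

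This likeness limits what a count of one copy means. Read length and the rule for reads that match several genes are not given in the sources used here. In the GENCODE M21 transcripts, 97.8% of the 100-base windows of Mup3 and 95.5% of those of Mup21 occurred in no other gene's transcripts. The share was 61.2% for Mup20, between 22.5% and 40.6% for Mup2, Mup7, Mup9, Mup11, Mup12 and Mup17, and 0.0% for Mup19. At 300 bases it was 100% for Mup3, Mup21 and Mup17, 85.4% for Mup20, 32.4% to 65.2% for the other central copies and 16.2% for Mup19. In windows of 50, 100 and 150 bases Mup3, Mup21 and Mup20 had more sequence of their own than the other 7, whose reads can be shared among copies. Mup19 had the least at all 4 lengths.

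The start regions give the same split for the genes with a window, which leaves out Mup12 and Mup20. RefSeq windows of 300 bases (250 before to 50 after the start, GRCm38.p6) were matched by symbol for 8 of the 10: Mup2, Mup3, Mup7, Mup9, Mup11, Mup17, Mup19 and Mup21. Over their aligned parts, the windows of Mup2, Mup7, Mup9, Mup11, Mup17 and Mup19 were 96.7% to 98.9% identical, those of Mup3 and Mup21 were 93.3% identical, and between these sets identity was 74.6% to 84.1%. The windows below are shown because Mup19 had the largest fall in the knockout, Mup17 and Mup2 had the smallest and the largest fall after PHx in WT among the copies with a window that resemble it, and Mup3 stands for the divergent pair, a choice made after its values were seen. Capitals mark AAAACATTCCACAAA, the longest run common to all 8 windows. It was present in 12 of 14 windows of Mup genes and in 12 of all 32851 windows in the table.
Mup19, chr4:61782175-61782474, minus strand: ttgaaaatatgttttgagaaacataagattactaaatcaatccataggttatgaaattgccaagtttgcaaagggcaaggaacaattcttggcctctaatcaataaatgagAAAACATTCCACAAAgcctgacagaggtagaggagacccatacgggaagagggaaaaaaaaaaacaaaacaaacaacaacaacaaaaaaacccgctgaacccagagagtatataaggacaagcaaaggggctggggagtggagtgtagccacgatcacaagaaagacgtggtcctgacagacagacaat
Mup17, chr4:61595783-61596082, minus strand: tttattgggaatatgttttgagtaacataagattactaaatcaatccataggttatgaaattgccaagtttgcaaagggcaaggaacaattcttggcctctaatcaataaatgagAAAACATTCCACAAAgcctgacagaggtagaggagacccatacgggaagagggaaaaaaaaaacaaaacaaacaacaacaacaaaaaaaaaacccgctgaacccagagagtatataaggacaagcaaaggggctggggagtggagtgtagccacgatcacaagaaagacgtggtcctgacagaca
Mup2, chr4:60139807-60140106, minus strand: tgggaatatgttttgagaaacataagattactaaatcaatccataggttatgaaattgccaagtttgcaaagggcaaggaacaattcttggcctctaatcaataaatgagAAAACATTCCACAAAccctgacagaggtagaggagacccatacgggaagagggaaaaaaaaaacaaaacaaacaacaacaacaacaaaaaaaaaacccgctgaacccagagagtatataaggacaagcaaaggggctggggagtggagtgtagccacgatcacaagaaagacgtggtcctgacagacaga
Mup3, chr4:62087268-62087567, minus strand: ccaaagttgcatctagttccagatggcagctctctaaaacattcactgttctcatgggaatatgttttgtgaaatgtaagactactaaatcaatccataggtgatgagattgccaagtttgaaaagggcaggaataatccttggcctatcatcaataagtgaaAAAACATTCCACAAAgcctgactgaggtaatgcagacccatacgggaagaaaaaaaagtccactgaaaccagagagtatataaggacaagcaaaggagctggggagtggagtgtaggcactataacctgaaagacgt
On either strand, the STAT5-type motif TTCNNNGAA was in 8.3% of all windows, the TATA box TATAAA in 13.6% and the C/EBP-type motif TTNNGCAA in 10.8%. None of the 3 was in any of the 8 member windows, which says only that these letters are not in these windows. The windows shown above do hold tatataag, which a search for TATAAA does not match.

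Library totals ran from 21634890 to 30461351 counts. Levels are given in CPM, that is, counts for every 1000000 in a library total that TMM has scaled. The TMM factors were 0.67 to 0.81 at WT baseline and 0.89 to 1.51 elsewhere. Eed itself stood at 16.8 ± 1.09 CPM (SD, n = 5) at WT baseline and 5.64 ± 1.44 CPM at KO baseline, and the ranges of the 2 genotypes did not overlap at either stage. The summed level of 10 hepatocyte markers was 136790 to 157570 CPM at WT baseline and 84509 to 114860 CPM at KO baseline, and the sums of both groups after PHx lay between 49592 and 136360 CPM. At baseline the sum of 6 cholangiocyte markers was 23.3 to 58.2 CPM in WT and 55.5 to 359 CPM in KO. That of 8 macrophage markers was 134 to 228 and 306 to 391 CPM, and that of 8 stellate cell and fibroblast markers 159 to 257 and 415 to 540 CPM. That of 7 endothelial markers was 158 to 188 and 198 to 233 CPM, and the 2 genotypes did not overlap in the last 3 of these sums. No marker was at 0 throughout a group. The part of these differences in the Mup values was not tested. In bulk liver, fewer cells of a type and less RNA per cell cannot be told apart.

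In WT livers at baseline the 10 genes took 4.41% to 5.56% of all counts, and all Mup genes together took 5.67% to 7.09%. Per kilobase of exon, Mup17 was the highest, with a mean of 31562 CPM per kb, followed by Mup3 (14746) and Mup7 (13977). Mup3 and Mup7 did not differ beyond their spread, and Mup3 was above Mup7 in only 2 of 5 livers. Next came Mup20 (4724 CPM per kb), Mup11 (1536) and Mup21 (758), each below the one before in all 5 livers with no overlap. Mup21, Mup19 (499) and Mup12 (393) overlapped neighbour by neighbour. The lowest were Mup9 (77.4) and Mup2 (18.5 CPM per kb). At KO baseline the order was different at the top: Mup20 (4183 CPM per kb) stood beside Mup17 (4960), with overlapping ranges, and above Mup3 (1473) in all 5 livers.

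**Figure D1:**
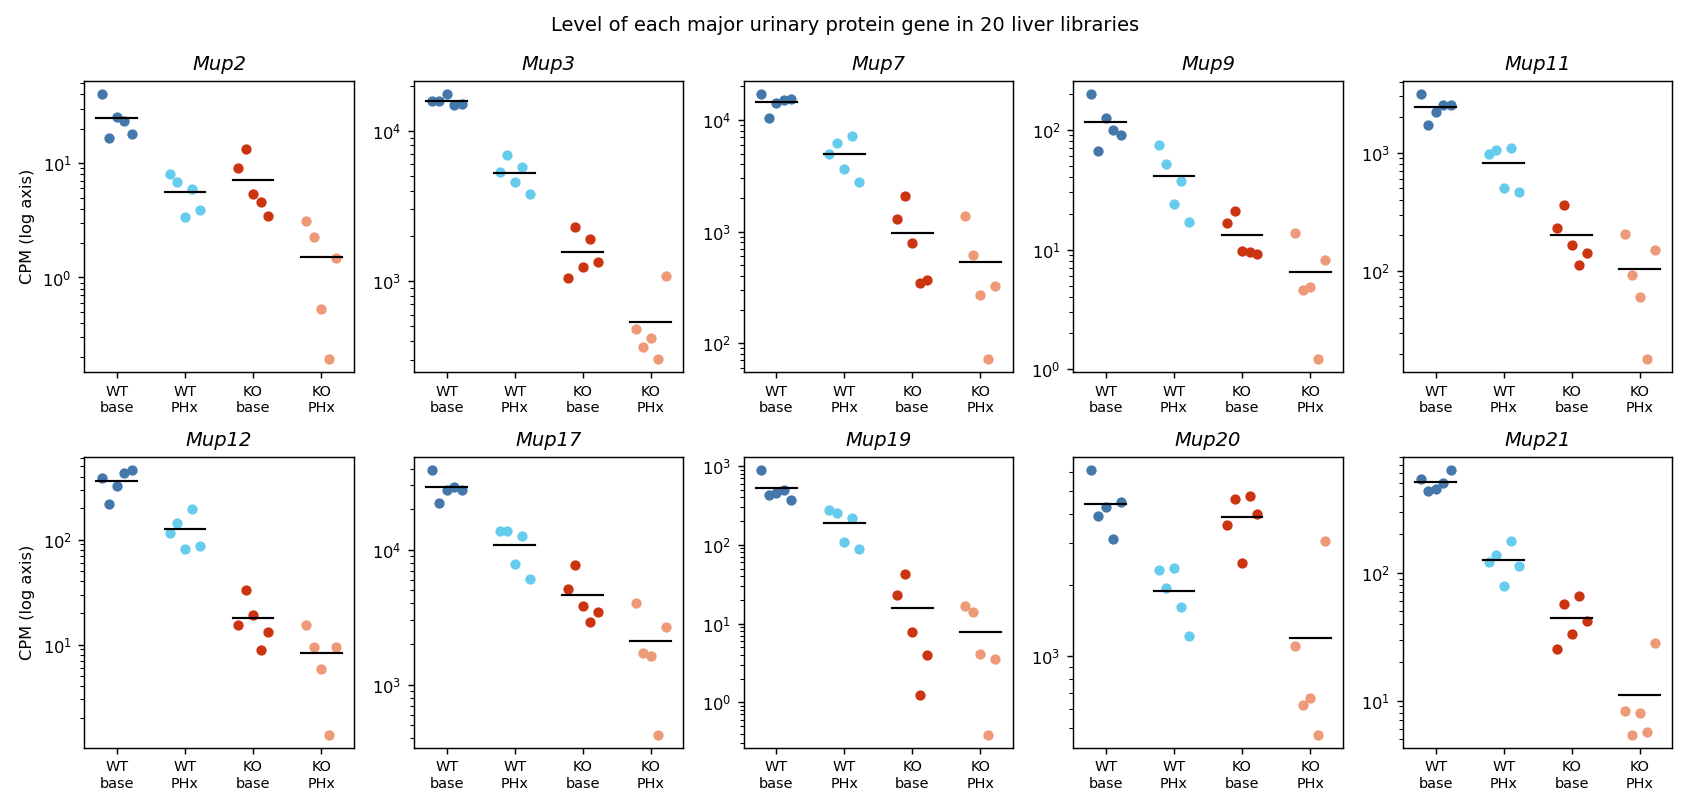
Level of each of the 10 genes in the 20 libraries, in CPM on a log axis, by genotype and stage (base, baseline; PHx, after partial hepatectomy). Points are mice and lines are group means of 5; the KO and WT points at baseline are separate in every panel but that of Mup20.

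The first question is how the knockout differs from wild type in resting liver. The Mup genes were lower in KO liver, apart from Mup20: 8 of the 9 genes tested were called lower at an adjusted p under 0.05 and none was higher. Over all 14661 genes tested, 4.89% were called lower in this comparison. The same 8 genes were lower in every KO liver than in every WT liver, a pattern found in 12.2% of all genes. The median log2 change of the 9 was -3.32, against -0.03 over all genes. Whole Mup output fell with them, to 1.17% to 2.60% of counts.

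Mup3 lies at the divergent end of the array. It stood at 15697, 15767, 17492, 14787 and 15001 CPM in WT mice 1 to 5. In KO mice 7, 8, 10, 11 and 12 it stood at 1054, 2308, 1247, 1920 and 1336 CPM. Every KO liver was far below every WT liver, with a log2 change of -3.32 ± 0.34 (SE, adjusted p = 1.89e-06). Mup21, its neighbour and nearest relative, was at 543, 436, 448, 502 and 636 CPM in WT and at 25.2, 56.6, 33.2, 65.4 and 42.1 CPM in KO. The groups did not overlap and the log2 change was -3.53 ± 0.41 (adjusted p = 1.05e-05).

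Mup17, the most abundant member, was at 39039, 22341, 27776, 29402 and 27732 CPM in WT. It was at 5099, 7735, 3800, 2918 and 3439 CPM in KO. All KO livers were lower, but the fall was smaller than that of Mup3, 6.36-fold (log2 change -2.67 ± 0.44, adjusted p = 0.00037); the difference between the 2 falls was not tested. Mup7 was at 10470 to 17038 CPM in WT and at 1301, 2081, 794, 346 and 365 CPM in KO, a log2 change of -3.88 ± 0.64 (adjusted p = 0.000327). Its KO livers spread 6.01-fold from lowest to highest, against 1.63-fold in WT.

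Among the less abundant central copies, Mup12 was at 385, 218, 327, 429 and 462 CPM in WT and at 15.4, 33.05, 19.002, 8.81 and 13.2 CPM in KO. Its log2 change of -4.35 ± 0.49 (adjusted p = 7.75e-06) was the largest fall among the 9 genes tested. Mup11 went from 2421 ± 519 CPM (SD, n = 5) to 202 ± 98.4 CPM (log2 change -3.58 ± 0.50, adjusted p = 6.71e-05), and Mup9 from 116 ± 50.6 to 13.2 ± 5.29 CPM (-3.14 ± 0.51, adjusted p = 0.000311). None of their KO livers reached the lowest WT liver.

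Mup2, the copy with the fewest counts, was at 40.0, 16.6, 25.3, 23.6 and 17.8 CPM in WT. In KO it was at 9.03, 13.4, 5.35, 4.57 and 3.43 CPM. The groups were close but did not overlap, and the log2 change was -1.79 ± 0.52 (adjusted p = 0.0226). This call is fragile: with library size as the only scaling its adjusted p was 0.0788, and over all 17 alternatives it ran from 0.00214 to 0.0788.

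Mup19, chosen for its fall, stood at 895, 433, 458, 503 and 368 CPM in WT and at 22.97, 42.8, 7.79, 1.25 and 3.99 CPM in KO. The KO values came from 692, 1012, 226, 30 and 85 counts. Its log2 change was -5.07 ± 0.89, or 33.7-fold, and no test is given for it. The KO livers themselves differed 34.3-fold, more than for any other member at that stage.

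**Figure D2:**
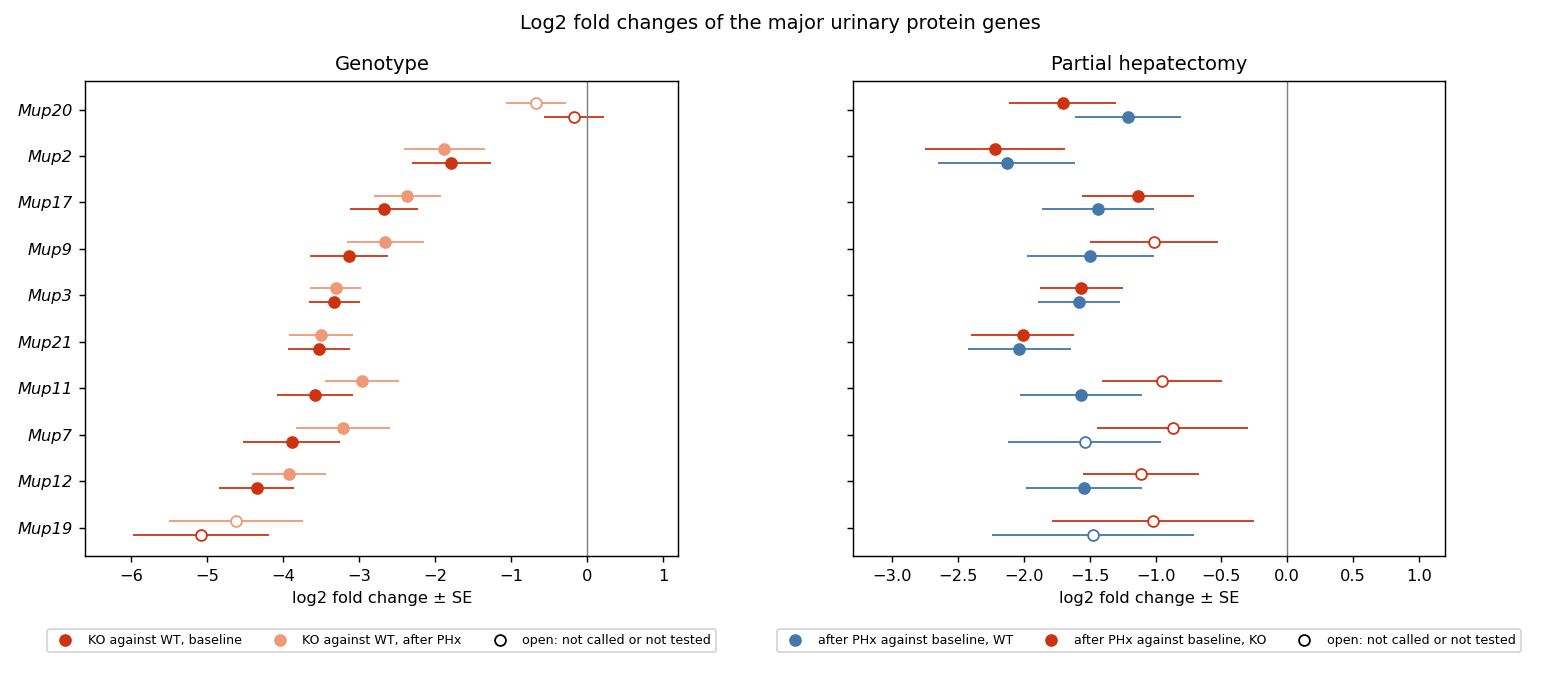
Log2 fold change with its standard error (SE) from edgeR for each gene: KO against WT at baseline and after PHx (left), and after PHx against baseline in each genotype (right). Filled points were called at an adjusted p under 0.05; Mup19 was not tested. Mup20 is the gene nearest to 0 on the left, at -0.18 (0.32 with scaling by library total alone) and -0.67.

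Mup20, the gene for darcin, did not pass the test at baseline. It stood at 6123, 3928, 4264, 3141 and 4464 CPM in WT and at 3578, 4627, 2469, 4735 and 4001 CPM in KO. The ranges overlapped. The log2 change was -0.18 ± 0.40 (adjusted p = 0.805), and it was 0.32 (adjusted p = 0.497) when libraries were scaled by their total alone, so no direction can be given. Its share of all Mup counts was 3.73% to 5.78% at WT baseline and 18.5% to 38.1% at KO baseline, with no overlap.

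Because scaling moves all genes of a library together, Mup20 was also compared with each other tested member inside every library, a comparison chosen after its values had been seen. The mean log2 ratio of Mup20 to Mup3 counts was -1.88 ± 0.34 (SD, n = 5) in WT and 1.33 ± 0.35 in KO at baseline. Mup3 had more counts than Mup20 in every WT liver, where the highest log2 ratio was -1.36, and fewer in every KO liver, where the lowest was 0.99. For Mup17 the mean log2 ratio was -2.75 ± 0.28 in WT and -0.19 ± 0.62 in KO. The mean log2 ratio was higher in KO for all 8 genes, by 1.71 (Mup2) to 4.26 (Mup12) at baseline and by 1.40 (Mup2) to 3.21 (Mup12) after PHx. These ratios restate the levels already given for genes that were lower in KO, so they are a description with no test.

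**Figure D3:**
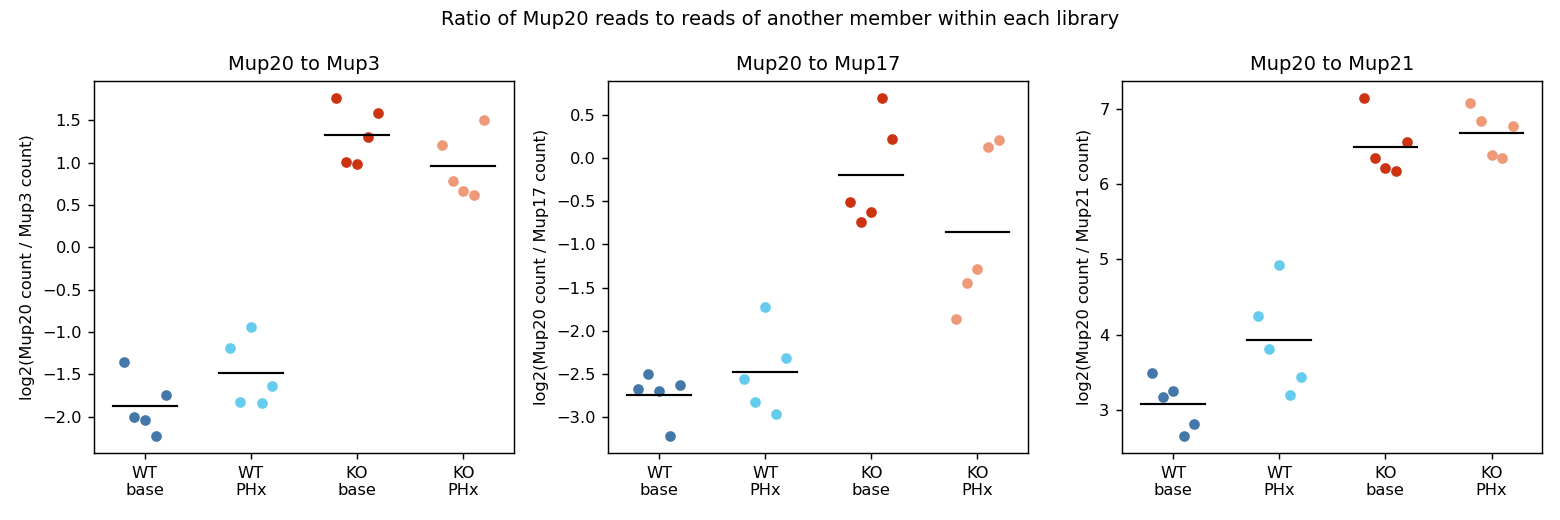
Log2 ratio of Mup20 counts to the counts of Mup3, Mup17 and Mup21 in each library, by genotype and stage; points are mice and lines are means of 5. At baseline all KO points lie above all WT points in the 3 panels; after PHx they also do for Mup3 and Mup21, while for Mup17 the lowest KO point (-1.87) is below the highest WT point (-1.72).

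Beside Mup20 lie Mup pseudogenes, copies that make no protein. Mup-ps19 and Mup-ps21, the nearest tested ones before it, were not called at baseline either (log2 changes -0.34 ± 0.39 and -0.08 ± 0.48, adjusted p = 0.596 and 0.936). Mup-ps19 was at 112 ± 44.8 CPM in WT and 89.0 ± 11.3 CPM in KO, and Mup-ps21 at 3.44 ± 0.81 and 3.26 ± 1.52 CPM. After PHx Mup-ps21 was called lower (-1.64 ± 0.50, adjusted p = 0.0232) and Mup-ps19 was not (-0.55 ± 0.39, adjusted p = 0.323). At 40 h both were called lower, with log2 changes of -2.99 and -2.07. At 48 h neither was called (-1.34 and -0.48, adjusted p = 0.114 and 0.354). Mup-ps19 and Mup-ps21 were picked after their values were seen. Among the other tested pseudogenes, Mup-ps17 and Mup-ps18 were called lower at baseline, and their genotypes did not overlap. Their log2 changes were -3.29 ± 0.59 and -3.08 ± 0.60 (adjusted p = 0.000767 and 0.00153).

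The second question is how the genotypes compare in the regenerating liver. After PHx the knockout again had lower levels of 8 of the 9 genes tested, with 8.20% of all genes called lower, and none was higher. The same number was lower in every KO sample than in every WT sample, as were 2.97% of all genes. The median log2 change of the 9 was -2.97, against -0.01 over all genes. Mup genes together took 2.04% to 3.63% of counts in WT and 0.27% to 1.43% in KO. Markers of other cell types also moved with genotype at this stage. The stellate cell and fibroblast sum was 166 to 240 CPM in WT and 280 to 479 CPM in KO, without overlap, and 3 of the 8 markers were called higher. The cholangiocyte sum was 20.97 to 239 and 120 to 562 CPM, with 4 of 5 tested markers called higher (median log2 change 2.84), where 16% of all genes were. The macrophage sum (60.2 to 312 and 67.7 to 330 CPM) and the endothelial sum (86.25 to 152 and 100.1 to 175 CPM) overlapped, with 1 marker called higher in each list. Their part in the Mup values was not tested.

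Mup3 was at 5308 (30 h), 6884 and 4545 (40 h), 5777 and 3802 CPM (48 h) in WT mice 1 to 5. It was at 1090 (KO mouse 12, 30 h), 422 and 305 (mice 10 and 11, 40 h), 482 and 363 CPM (mice 7 and 8, 48 h) in KO. No KO sample reached the lowest WT sample, and the log2 change was -3.31 ± 0.34 (adjusted p = 2.33e-06). Mup21 fell by 3.50 ± 0.42 on the log2 scale (adjusted p = 8.24e-06), from 125 ± 35.9 to 11.1 ± 9.64 CPM. Mup12 fell by 3.92 ± 0.49 (adjusted p = 1.41e-05), from 125 ± 47.3 to 8.29 ± 5.12 CPM.

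Mup17 was at 13666, 13842, 7782, 12609 and 6088 CPM in WT mice 1 to 5. It was at 4053, 1703, 1635, 428 and 2664 CPM in KO mice 7, 8, 10, 11 and 12, lower in every sample (log2 change -2.36 ± 0.44, adjusted p = 0.000651). The remaining called genes were Mup7 (log2 change -3.22, adjusted p = 0.000895), Mup11 (-2.97, 0.000216), Mup9 (-2.65, 0.000815) and Mup2 (-1.88, 0.014). Mup2 lost its call in a fit of the 10 later samples alone (adjusted p = 0.0866, range over 18 alternatives 0.00173 to 0.0866). Mup19, untested, was at 279, 257, 110, 223 and 87.8 CPM in WT and at 16.8, 13.9, 4.16, 0.39 and 3.50 CPM in KO, the lowest of these from 14 counts.

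Mup20 after PHx was at 2326, 1944, 2361, 1619 and 1220 CPM in WT mice 1 to 5 and at 1112, 624, 670, 468 and 3082 CPM in KO mice 7, 8, 10, 11 and 12. The KO sample at 30 h was the highest of all 10, and the other 4 were below every WT sample. The log2 change was -0.67 ± 0.40 (adjusted p = 0.234). With time point as a term it was -0.98 (adjusted p = 0.0346), and without KO mouse 12 it was -1.40 (adjusted p = 0.00154), so whether it is called depends on that mouse and on the model; over 18 alternatives the adjusted p ran from 0.00154 to 0.472.

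Split by time, with 2 samples per arm, all 9 genes were called lower at 40 h, where 4.68% of all genes were, Mup20 included (log2 change -1.92 ± 0.39, adjusted p = 0.00669). The KO samples there held 670 and 468 CPM of Mup20 and the WT samples 1944 and 2361. At 48 h, 5 of 9 were called, where 10.7% of all genes were called lower: Mup3, Mup7, Mup11, Mup12 and Mup21. Mup21 and Mup12 kept large falls at 48 h (log2 changes -4.40 and -3.53), while Mup2 stood at -0.87 (adjusted p = 0.298) and Mup20 at -0.71 (adjusted p = 0.181). Without KO mouse 11 only 5 genes were called at 40 h, and without WT mouse 4 or KO mouse 8 only 3 at 48 h. The share of all genes called in either direction was 4.17% without KO mouse 11, against 13.3% with all samples of 40 h. It was 30.3% and 16.3% without WT mouse 4 and KO mouse 8, against 24.3% with all samples of 48 h. At 30 h, with 1 sample per arm and no test, Mup3 was at 5308 CPM in WT and 1090 CPM in KO, and Mup20 at 2326 and 3082 CPM.

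The third question is the response to PHx. In WT liver, 8 of 9 genes were called lower after PHx than at baseline, with 8.68% of all genes called lower. Of the 9, 8 were lower in every sample after PHx than in every baseline sample, as were 10.9% of all genes. The median log2 change was -1.54, against 0.04 over all genes. The falls lay in a narrow band, from -1.21 for Mup20 to -2.13 for Mup2, and were smaller than most genotype differences.

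Mup2 fell most, from 24.7 ± 9.32 to 5.63 ± 1.99 CPM (log2 change -2.13 ± 0.52, adjusted p = 0.00808), then Mup21, from 513 ± 81.1 to 125 ± 35.9 CPM (-2.03 ± 0.39, adjusted p = 0.00157). Mup3 fell 2.99-fold, from 15749 ± 1064 to 5263 ± 1177 CPM (adjusted p = 0.00204), and Mup17 fell 2.71-fold (adjusted p = 0.0223). Mup7, whose 5 samples after PHx were all below its baseline samples, had a log2 change of -1.54 ± 0.58 (adjusted p = 0.0668); it passed with the mouse as a block (adjusted p = 0.0382, range over 17 alternatives 0.027 to 0.134). Mup20 fell by 1.21 ± 0.40 on the log2 scale (adjusted p = 0.0387), from 4384 ± 1095 to 1894 ± 484 CPM, but not with the mouse as a block (adjusted p = 0.0866, range over 17 alternatives 0.0185 to 0.112). The count of 8 dropped to 5 without WT mouse 1 at baseline, to 5 without WT mouse 3 after PHx and to 4 without WT mouse 5 after PHx. Of all genes 15.3%, 18.5% and 19.4% were then called in either direction, against 20.1% with all samples. Among markers of other cell types, 2 macrophage markers were called higher, where 11.4% of all genes were, and 1 macrophage and 1 endothelial marker lower. No cholangiocyte or stellate marker was called.

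In KO liver, 5 of 9 genes were called lower after PHx, where 12.1% of all genes were: Mup2, Mup3, Mup17, Mup20 and Mup21. Only Mup2 was lower in every sample, as 7.73% of all genes were. Mup2 fell by 2.22 ± 0.53 on the log2 scale (adjusted p = 0.00572). Mup21 had a log2 change of -2.01 ± 0.39 (0.0019), Mup20 of -1.70 ± 0.41 (0.00559) and Mup3 of -1.56 ± 0.31 (0.00222). Mup17 stood at the threshold (log2 change -1.13 ± 0.42, adjusted p = 0.0494, range over 17 alternatives 0.02 to 0.138). Mup7, Mup9, Mup11 and Mup12 had log2 changes of -0.87 to -1.11 and did not pass; Mup12 passed with the mouse as a block (adjusted p = 0.0318). Without the sample of KO mouse 7 after PHx, all 9 were called lower, while the share of all genes called in either direction was 20.6%, against 29.5% with all samples. Markers of other cell types moved in this comparison too. Of 5 tested cholangiocyte markers 3 were called higher (median log2 change 2.59), where 17.5% of all genes were. Of 8 macrophage markers 3 were called lower and 1 higher, of 8 stellate cell and fibroblast markers 2 lower, and of 7 endothelial markers 1 lower and 1 higher. Their part in the Mup values was not tested.

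The difference between the 2 responses was tested directly, and no member was called, nor was any at an unadjusted p under 0.05; DESeq2 also called 0 of 9. Over all genes 0.389% were called. The differences (KO minus WT) ran from -0.49 ± 0.56 for Mup20 to 0.67 ± 0.81 for Mup7, each smaller than its own standard error. In 9 mice the labels join the baseline and the later sample of the same animal. All 4 such WT mice had lower levels of all 10 genes after PHx. All 5 KO mice did so for 8 genes, while Mup7 was slightly higher in KO mouse 7 and Mup11 in KO mouse 12 (log2 changes 0.09 each).

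**Figure D4:**
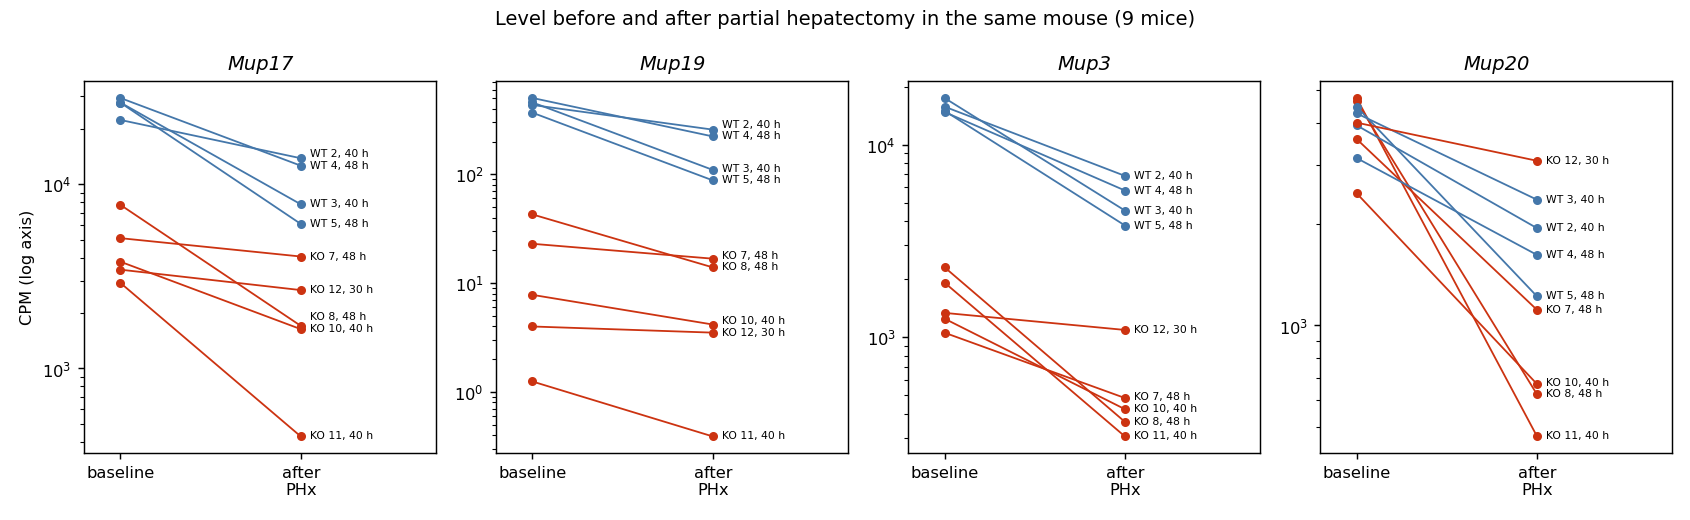
Level of Mup17, Mup19, Mup3 and Mup20 before and after PHx in the 9 mice whose number is in both labels, in CPM on a log axis; each line is 1 mouse, WT in blue and KO in red, with its hour after PHx. For Mup20 the KO and WT lines start together, and KO mouse 12, sampled at 30 h, ends highest at 3082 CPM.

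KO mice were not alike. At baseline, Mup19, Mup7 and Mup2 were higher in KO mice 7 and 8 than in mice 10, 11 and 12, and so were Mup9, Mup11 and Mup17. Mup12, Mup3, Mup20 and Mup21 did not divide the mice in this way: KO mouse 11, the lowest for Mup19 (1.25 CPM), was the highest for Mup20 (4735 CPM) and Mup21 (65.4 CPM). After removing the 4 group means, the correlation of log2(CPM + 1) over the 20 samples was 0.98 between Mup11 and Mup17 and 0.88 between Mup3 and Mup21. It was 0.81 between Mup3 and Mup20, 0.16 between Mup3 and Mup19 and -0.08 between Mup19 and Mup21. These are descriptions, and how reads matching several near-identical copies were counted is not given in the sources used here. KO mouse 11 was also the lowest after PHx for all 10 genes but Mup21, where mouse 8 was lower (5.42 against 5.73 CPM).

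Other genes of the family were also lower. All 11 other protein-coding Mup genes were tested. Mup4 and Mup5 averaged 0.51 and 2.22 CPM at WT baseline and at most 0.69 CPM in any other group. Both were highest in WT, so their calls are not counted here. Mup4 was not called at baseline (log2 change -1.34 ± 0.63, adjusted p = 0.153). Mup1, Mup6, Mup8, Mup13, Mup14, Mup15, Mup16 and Mup18 were called lower in KO at baseline and after PHx. Of all genes, 4.89% and 8.20% were called lower there. Mup10 was called lower at baseline but not after PHx (-1.07 ± 0.43, adjusted p = 0.0772). At 40 h all of these were called lower, Mup10 included, where 4.68% of all genes were. At 48 h only Mup1, Mup6 and Mup13 of these were, where 10.7% of all genes were. The most abundant at baseline were Mup10, at 7302 ± 1513 CPM in WT and 2298 ± 1435 CPM in KO (log2 change -1.67 ± 0.44, adjusted p = 0.0128, and -0.28 at 48 h), and Mup14, at 5063 ± 1368 and 836 ± 578 CPM (-2.60 ± 0.52, adjusted p = 0.00206). Mup1 had the largest fall of these at baseline (-3.93 ± 0.56, adjusted p = 7.72e-05). Of 27 Mup pseudogenes in the files, 10 were tested. Mup-ps7, Mup-ps12, Mup-ps14 and Mup-ps16 averaged 1.09 to 1.69 CPM at WT baseline and less than 0.1 CPM in every other group, so they passed the filter through the group where they were high, and no count of calls is given for the pseudogenes. Of 20 protein-coding genes of other families within 500 kb of the array, none of them inside it, 17 were tested. At baseline 1 of them was called higher, Wdr31 (log2 change 3.29), and none lower, where 11.1% of all genes were called higher and 4.89% lower. After PHx, Zfp37, Bspry, E130308A19Rik and Slc31a2 were called higher and Pole3 lower, where 16% of all genes were called higher and 8.20% lower. The log2 changes of the 17 ran from -0.63 to 3.29 at baseline and from -0.82 to 5.79 after PHx.

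**Figure D5:**
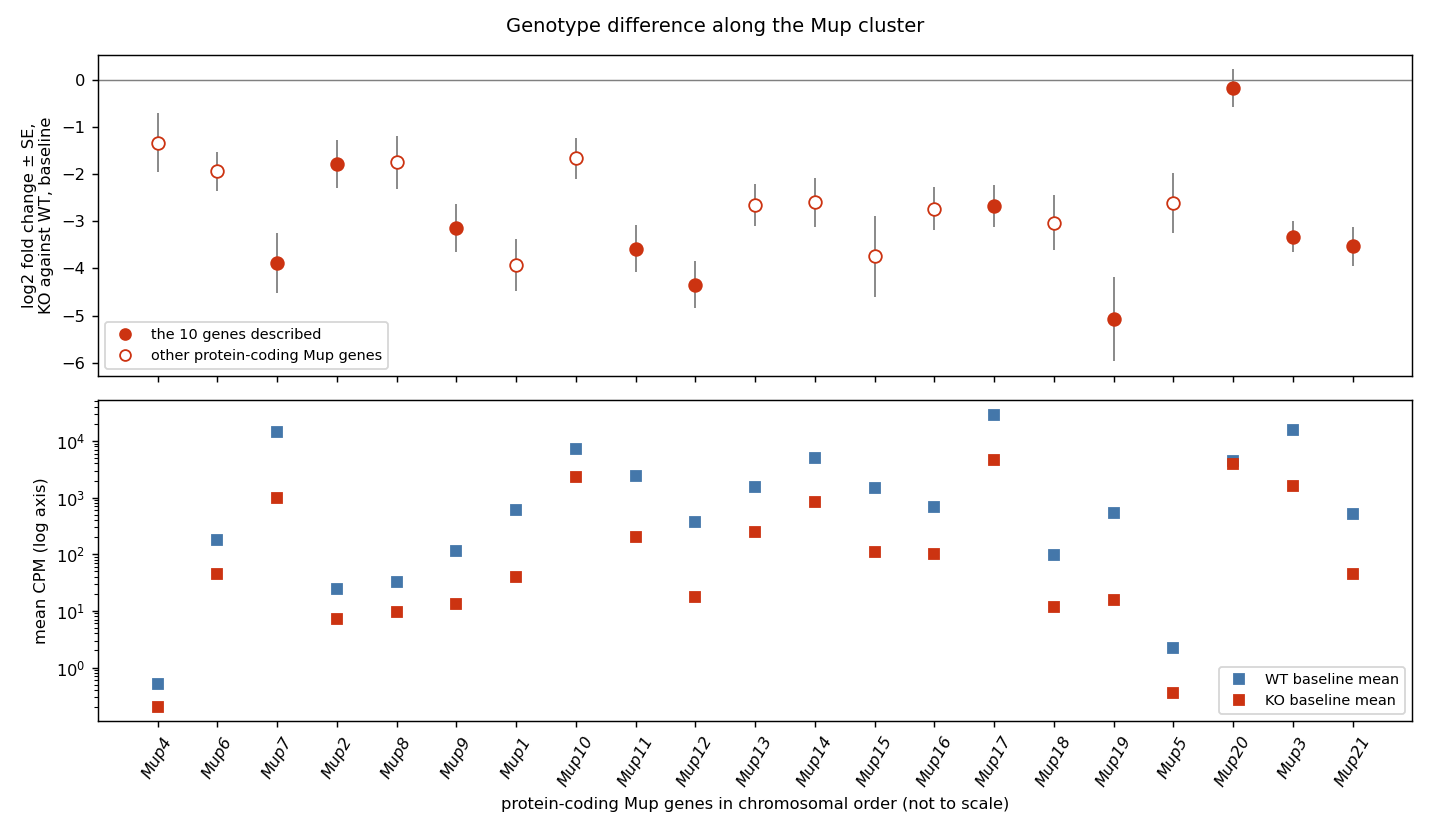
Upper panel: log2 fold change of KO against WT at baseline, with its SE, for the 21 protein-coding Mup genes in chromosomal order (filled, the 10 genes described; open, the other 11). Lower panel: mean CPM at baseline in WT and KO on a log axis. Mup20, between Mup5 and Mup3 near the right end, is at -0.18 (0.32 with scaling by library total alone), with Mup5 at -2.62 and Mup3 at -3.32.

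Of 20 genes of the growth hormone axis and known Mup regulators, 6 were called lower in KO at baseline and none higher, where 4.89% of all genes were called lower and 11.1% higher. Ghr, the growth hormone receptor, was at 811 ± 54.5 CPM in WT and at 284 ± 47.4 CPM in KO (log2 change -1.51 ± 0.33, adjusted p = 0.00355), and after PHx from 190 ± 121 to 93.4 ± 34.9 CPM (-1.02, adjusted p = 0.0264, range over 18 alternatives 0.00964 to 0.168). Thrb, a thyroid hormone receptor, fell by 0.99 on the log2 scale (adjusted p = 0.0227, range over 17 alternatives 0.000302 to 0.271). Igf1, the main hormone induced by growth hormone in liver, had a log2 change of -0.65 at baseline (adjusted p = 0.0446, range over 17 alternatives 0.00246 to 0.525) and -0.85 after PHx (adjusted p = 0.00689, range over 18 alternatives 0.00122 to 0.0837). Stat5b, the signal transducer, stood at 76.5 ± 12.2 CPM in WT and 73.9 ± 9.89 CPM in KO and was not called (adjusted p = 0.896). Zhx2, a repressor of several liver genes, and Socs2, a feedback inhibitor of the receptor, were not called either (adjusted p = 0.723 and 0.889). The direction of Stat5b and Zhx2 at baseline turned under scaling by library total alone.

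Other sex-biased liver genes were measured in the same libraries. Of 15 male-biased liver genes outside the family, 14 were tested and 8 were called lower in KO at baseline, where 4.89% of all genes were, and none higher. Elovl3, a fatty acid elongase, went from 890 ± 327 to 54.8 ± 35.4 CPM (log2 change -4.02, adjusted p = 0.000635), and Hsd3b5, a steroid dehydrogenase, from 558 ± 36.8 to 17.3 ± 14.3 CPM (-5.01, adjusted p = 0.00772). Of 22 female-biased genes, 17 were tested. Sult2a1 averaged 0.03 CPM or less in both WT groups, against 25.7 and 33.3 CPM in KO at baseline and after PHx. It passed the filter through the groups where it was high, so no count of calls is given for this list. Ntrk2, a neurotrophin receptor, rose from 0.55 ± 0.34 to 138 ± 20.96 CPM (log2 change 7.94, adjusted p = 8.01e-07). The sulfotransferase Sult2a1 was at 25.7 ± 13.6 CPM in KO with no count in the 5 WT baseline libraries, which allows up to 0.0305 CPM over the group (3 counts).

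Other lipocalins did not share one direction. Of 11, 10 were tested, and at baseline 3 were called higher and 1 lower, where 11.1% and 4.89% of all genes were. The higher ones were Ptgds (log2 change 3.93, adjusted p = 0.000162), Lcn2 (3.34, 0.0033), an iron-carrier-binding protein of inflammation, and Orm2 (2.65, 0.000132), an acute-phase protein. Apom, a carrier on lipoproteins, was called lower at the threshold (-0.95, adjusted p = 0.0498) and lost the call when any single library of the 2 groups was left out (adjusted p = 0.0685 to 0.157). After PHx the balance was different: 4 were called lower and 1 higher, where 8.20% and 16% of all genes were. At 40 h 5 were called lower and 0 higher, where 4.68% and 8.61% of all genes were, and at 48 h 2 lower and 1 higher, where 10.7% and 13.7% were. Ptgds was the one called higher after PHx (3.89, adjusted p = 0.000152) and Apom was among those called lower (-1.68, 0.00105). Lcn2 (-0.69, adjusted p = 0.471) and Orm2 (0.14, 0.814) were not called there.

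Over the 20 samples, the genes outside the family whose log2(CPM + 1) was most like the mean standardised level of the 10 were Gm13775 (Pearson r = 0.985), Serpina1e (0.970), Vma21 (0.946), Mbnl1 (0.946) and Csrp3 (0.933). The samples share the 4 group differences. With the group means removed, r was 0.855, 0.805, 0.729, 0.719 and 0.394. Gm13775 is a transcript annotated inside the Mup array, at 26.2 ± 5.48 CPM in WT and 4.23 ± 1.99 CPM in KO at baseline. Serpina1e, a copy of the alpha-1-antitrypsin family, went from 13410 ± 2063 CPM at WT baseline to 2423 ± 1222 CPM at KO baseline, and to 604 ± 448 CPM in KO after PHx.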

How the data were processed

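Bulk poly(A) RNA-seq counts of 20 mouse livers were used. The authors deposited, for each library, a file of raw read counts by Ensembl gene, and all values in these files are whole. Per the labels, libraries followed the Illumina TruSeq protocol. The submitters' processing notes name mm10, Trimmomatic 0.36 and FastQC 0.11.5, and the series' design text names fastp 0.20.0 for trimming; aligner, counter, strand setting and read length are not given in the sources used here. No 2 files were identical. Of 46603 identifiers, 46005 matched a GENCODE M21 symbol. The members and gene lists were chosen with earlier results of these data known.

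Counts of all 20 libraries (21634890 to 30461351 counts each) were fitted with edgeR 4.0.16 (R 4.3.3): filterByExpr, TMM, 4 group means, glmQLFit and glmQLFTest, Benjamini-Hochberg adjustment over 14661 genes. A gene was called at an adjusted p under 0.05. The SE of a log2 change is its size divided by the square root of the quasi-likelihood F. A second fit gave each time point of each genotype its own mean. The scripts were tested on simulated data. CPM per kb used the union of GENCODE exons. List genes named are those with the 3 largest called changes in a list and comparison, with Ghr, Stat5b, Zhx2, Igf1 and Socs2 always, fewer where space allowed and 1 not reported here; other Mup genes are named at 1 CPM or more in the mean of a group. Alternatives were scaling by library total, by DESeq2 size factors and without Mup genes, no filter and a filter of 1 CPM in 5 samples, DESeq2 1.42.0, only the samples compared, a time term, the mouse as a block, and leaving out each library.

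The labels give the same mouse number to both samples of 9 mice, so these pair by animal; baseline WT replicate 1 carries no mouse number and was left out of the block with its partner. Over all tested genes, deviations from the group means correlated within pairs at -0.0632 to 0.195 and between other mice at -0.229 to 0.285. Over the 10 Mup genes alone, the correlation was -0.233 to 0.956 within pairs, above 0 in 8 of 9, and -0.952 to 0.891 between other mice.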

Additional observations from a re-analysis of the deposited data

Results flagged for a closer look

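In groups of 5, a library was looked at again when its gap to the nearest of the others exceeded 0.71 of the group's range, a limit that chance passes in about 1 in 20 groups. It was passed in 4 of 40 gene and group combinations. In KO livers after PHx, mouse 12, the 1 sample at 30 h, was the highest for Mup3 (1090 CPM), Mup20 (3082 CPM) and Mup21 (28.21 CPM). In WT livers at baseline, replicate 1 was the highest for Mup19 (894.6 CPM).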

How the results depend on the processing

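The 8 genes called lower in KO at baseline and after PHx (all of the 9 tested but Mup20) kept their direction in both comparisons under every alternative tried. With libraries scaled by their total alone, the median log2 change of all genes moved by 0.48 at baseline, 0.38 after PHx, 0.36 in the WT response and 0.27 in the KO response. The share of calls that were higher then went from 69.5% to 96.9%, from 66.1% to 92.9%, from 56.9% to 86.7% and from 59.1% to 80.9%. The summed level of the 10 genes at WT baseline went from 67799 to 51371 CPM. The baseline changes of Mup20 (0.316), Stat5b (0.417) and Zhx2 (0.267) turned positive under that scaling, and that of Stat5b did with no filter (0.017). Leaving out 1 library gave baseline log2 changes of -0.122 to 0.091 for Stat5b and -0.106 to 0.495 for Socs2. The cause was not tested.

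With 1 library left out, 4 to 8 of 9 genes were called in the WT response, 4 to 9 in the KO response, 5 to 9 at 40 h and 3 to 6 at 48 h. The share of all genes called in either direction was then 14.6% to 20.5%, 20.1% to 40.4%, 1.47% to 17.3% and 14.1% to 30.3%; fewer samples enter those fits, and a lone sample is assumed to vary like the others. With the mouse as a replicate block, 8 genes were called in the WT response, Mup7 (-1.562) gained and Mup20 (-1.172) lost, and Mup12 (-1.32) gained a call in KO; no other member's call changed in either response. Few counts limit Mup2 and Mup19 in KO liver, with as few as 7 and 14 counts in a library.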
